A study of Mus musculus with 11 samples.

Results

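The 36 genes described here form the amino acid supply and ATF4 response of mouse knee cartilage: ATF4 and its partners, amino acid transporters, and enzymes that make or use serine, glycine and other amino acids. They were taken from a list of symbols, and all 36 of 36 were found among the 55421 genes of the count tables and had enough counts to enter the tests, which covered 18125 genes. Of these members, 34 were tested. The remaining 2, Slc7a2 and Gldc, were picked for their difference between the groups on these same counts, so their values are a description with no test.

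The libraries came from C57BL/6 mice aged 14 weeks, killed 4 weeks after the medial meniscus had been destabilized (DMM), a knee operation used as a model of osteoarthritis. There were 4 libraries labelled DMM c-FosDCh, 3 labelled DMM c-FosWT and 4 labelled contralateral c-FosWT, the last from the other knee of operated wild-type mice. The label c-FosDCh is read here as a deletion in chondrocytes of Fos, which with Jun proteins forms the transcription factor AP-1; the Cre driver is not given in the sources used here. All groups were articular cartilage cut off with a scalpel, each library from 1 animal, and 3 wild-type animals gave both knees. Poly(A) RNA was sequenced, and levels are given as CPM, the usual unit for counts scaled to a common library total.

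ATF4 is the transcription factor at the centre of the integrated stress response. Kinases that sense amino acid shortage, unfolded protein in the endoplasmic reticulum, viral RNA or heme deficiency phosphorylate the initiation factor eIF2, which lowers general translation while translation of Atf4 mRNA increases. ATF4 then raises genes for amino acid import, amino acid synthesis and tRNA charging, mostly through a C/EBP-ATF response element. Chondrocytes secrete large amounts of glycine- and proline-rich collagen, and Atf4 is known to be needed for chondrocyte proliferation and differentiation in the growth plate.

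A promoter search shows which members carry the core letters of that response element close to their start. RefSeq windows (GRCm38.p6) from 250 bases before to 50 bases after the start were held for 30 of the 36 members; Slc7a5, Slc7a2, Slc38a1, Slc1a5, Eif4ebp1 and Cth had none. The letters TGATGNAA, searched on both strands in the 250 bases before the start, were found in 7 of 30 members (23.33%), against 3.91% of 27025 genes. The stretches lie at chr2:119351034-119351071 on the plus strand for Chac1, chr3:50443638-50443694 on the minus strand for Slc7a11, chr6:7693210-7693247 (minus) for Asns, chr7:126625558-126625595 (minus) for Nupr1, chr11:120643829-120643866 (minus) for Pycr1, chr19:27216805-27216842 (plus) for Vldlr and chr19:43524685-43524722 (minus) for Got1. They are shown so that the shared letters can be read in each gene's own context, with capitals marking TGATGNAA or its reverse complement, each read 5′ to 3′ on the gene's strand.
Chac1: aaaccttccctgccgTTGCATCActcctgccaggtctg
Slc7a11: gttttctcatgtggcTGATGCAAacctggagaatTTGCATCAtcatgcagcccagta
Asns: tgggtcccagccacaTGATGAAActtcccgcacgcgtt
Nupr1: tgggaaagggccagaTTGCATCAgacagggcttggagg
Pycr1: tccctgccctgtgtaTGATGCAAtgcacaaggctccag
Vldlr: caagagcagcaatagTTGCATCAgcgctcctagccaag
Got1: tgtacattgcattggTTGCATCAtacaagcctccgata

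Slc7a11 held the letters on both strands. The endoplasmic reticulum stress element, CCAAT, any 9 bases, then CCACG, searched on both strands, was found in 1 of 30 members, Hspa5, against 0.13% of genes. The motif of AP-1, the factor that contains Fos, was searched as TGANTCA on both strands and was found in 3 of 30 members, Hspa5, Slc7a1 and Ddit3, against 7.82% of genes. These 2 searched motifs do not overlap in the Hspa5 stretch, which lies at chr2:34771893-34772058 on the plus strand. It is shown because it holds both, in capitals, in the member with the highest level.
Hspa5: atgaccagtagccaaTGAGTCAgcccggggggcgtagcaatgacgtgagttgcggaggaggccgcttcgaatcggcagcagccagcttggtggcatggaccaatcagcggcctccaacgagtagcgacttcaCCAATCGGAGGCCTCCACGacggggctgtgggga

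A match is a run of letters, not a shown binding site. The 7 members with TGATGNAA did not move as a block: between the libraries labelled DMM c-FosDCh and DMM c-FosWT their log2 fold changes ran from -1.43 to 1.5, with 5 positive, 2 negative and 1 called, Nupr1. The 22 other tested members with a window ran from -1.34 to 2.32, with 13 positive, 9 negative and 3 called.

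Several facts of the libraries touch the results below. Gene counts ranged from 13593454 to 18280558 per library. Fos itself was not lower in the libraries labelled DMM c-FosDCh, at 10.9 to 33.0 CPM, against 9.01 to 14.1 CPM in DMM c-FosWT and 15.7 to 24.9 CPM in contralateral c-FosWT libraries, so directions for this genotype rest on the label. All 20 cartilage markers had counts in every library, and so did all 28 markers of marrow (red cell and granulocyte genes) and all 12 of skeletal muscle. Summed marrow markers held 909.1 to 14980 CPM in DMM c-FosDCh, 16410 to 28470 CPM in DMM c-FosWT and 6214 to 17910 CPM in contralateral c-FosWT libraries, and summed cartilage markers held 24710 to 90980 CPM in DMM c-FosDCh, 7257 to 19430 CPM in DMM c-FosWT and 23490 to 45020 CPM in contralateral c-FosWT libraries. A marrow score, taken as the marrow markers' mean log2 CPM, was 7.51, 7.59, 6.14 and 4.01 in DMM c-FosDCh replicates 1 to 4, against 8.12, 8.43 and 8.88 in DMM c-FosWT and 7.28, 6.60, 6.56 and 8.21 in contralateral c-FosWT replicates. As mean log2 CPM, cartilage markers of the DMM groups overlapped (7.85 to 8.95 in DMM c-FosDCh, 6.58 to 8.35 in DMM c-FosWT). Granulocyte markers overlapped too (3.97 to 8.72 in DMM c-FosDCh, 8.29 to 9.175 in DMM c-FosWT). Red cell markers did not (4.06 to 7.09 in DMM c-FosDCh, 7.94 to 8.58 in DMM c-FosWT). By gene, 9 of 20 cartilage markers were called higher in DMM c-FosDCh than in DMM c-FosWT (45%, against 10.6% of all genes) and 0 lower (against 3.79%). Marrow markers thus differed between the DMM groups, and cartilage markers by their sums and calls, in the same libraries that carry the member differences. In bulk samples fewer cells of a type and less RNA per cell cannot be told apart. Muscle markers were high in DMM c-FosWT replicate 1 and contralateral c-FosWT replicate 2, with scores of 8.95 and 8.18, against 1.66 to 5.91 in the other libraries.

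Levels per kilobase of exon, which allow genes to be compared, spanned a wide range among the 36 members. Hspa5, the main chaperone of the endoplasmic reticulum, stood first with 150 ± 99 CPM per kb in DMM c-FosDCh, 92.2 ± 7.1 in DMM c-FosWT and 101 ± 11 in contralateral c-FosWT libraries (SD, n = 4, 3 and 4). Xbp1, a transcription factor of the unfolded protein response, Atf4 and the glutamine transporter Slc38a2 followed with overlapping levels of 57.6 ± 23, 52.5 ± 18 and 54.4 ± 19 CPM per kb in DMM c-FosDCh libraries. In DMM c-FosWT libraries they had 37.5 ± 2.6, 43.2 ± 3.6 and 28.1 ± 4.7 CPM per kb. The order differed there: Slc1a5, at 40.0 ± 5.3 CPM per kb, had a higher mean than Xbp1 and Slc38a2. Cebpb, at 28.4 ± 7.5 CPM per kb, had a slightly higher mean than Slc38a2. By the mean over all libraries, the lowest members were the cystine importer Slc7a11 and Cbs, an enzyme of cysteine synthesis. Slc7a11 had 0.184 ± 0.14 CPM per kb in DMM c-FosDCh, 0.499 ± 0.096 in DMM c-FosWT and 0.278 ± 0.11 in contralateral c-FosWT libraries, and Cbs 0.102 ± 0.064 CPM per kb in DMM c-FosDCh, 0.0277 ± 0.022 in DMM c-FosWT and 0.16 ± 0.092 in contralateral c-FosWT libraries.

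**Figure D1:**
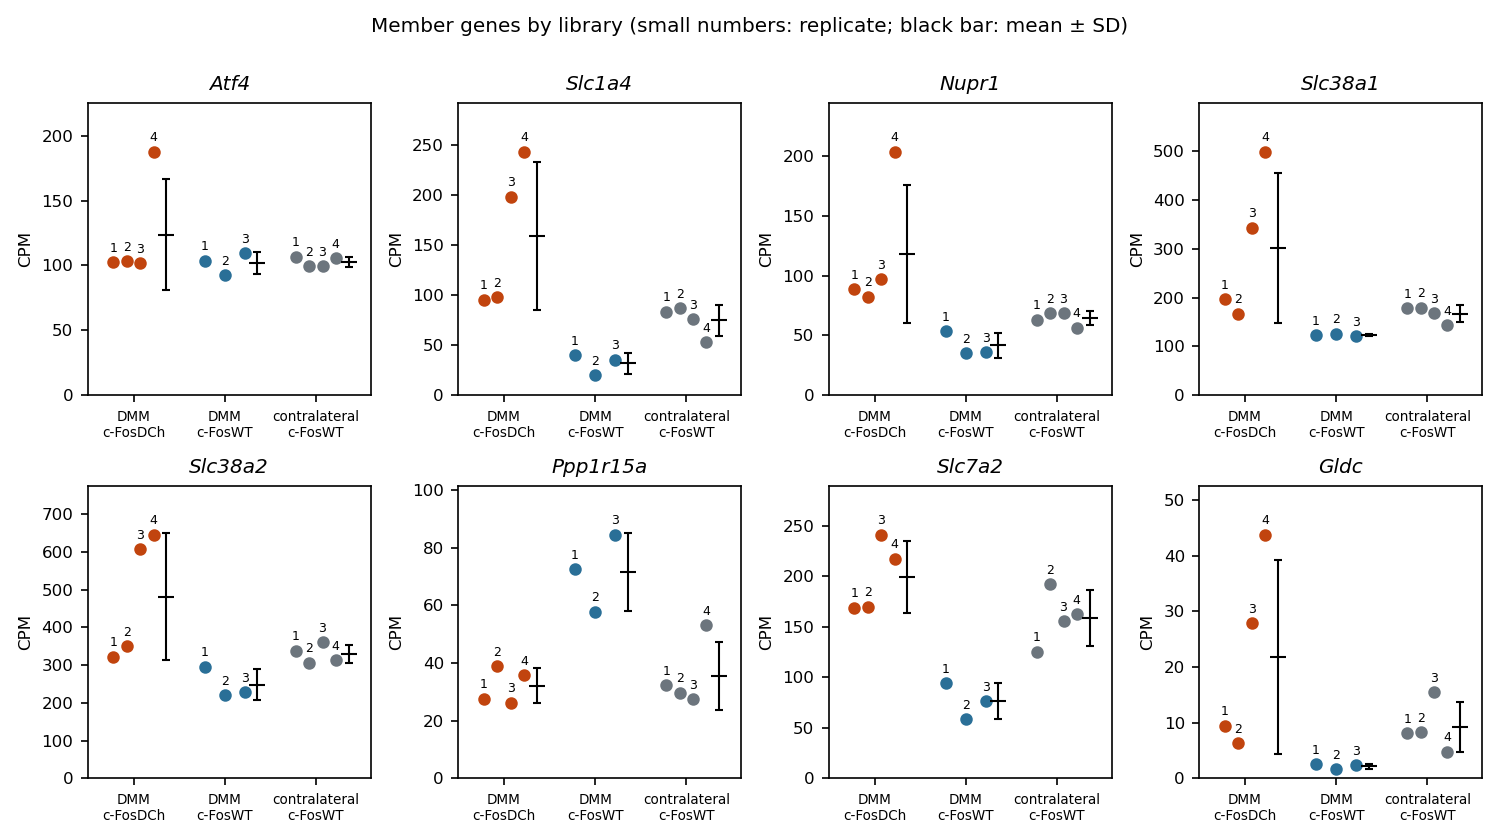
CPM (y axis, from 0) of 8 members in each library, with DMM c-FosDCh on the left, DMM c-FosWT in the middle and contralateral c-FosWT on the right; points are libraries with their replicate number, and black bars are mean ± SD (n = 4, 3 and 4). Atf4 stays near 100 CPM except in DMM c-FosDCh replicate 4, while Slc1a4, Nupr1, Slc38a1 and Slc38a2 are lowest in the 3 DMM c-FosWT libraries and Ppp1r15a is highest there.

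The first question was how the members differed between operated knees of the 2 genotypes. The transporter genes Slc1a4, Slc38a1 and Slc38a2 and the stress-induced nuclear protein gene Nupr1 were higher in the libraries labelled DMM c-FosDCh than in DMM c-FosWT, and Ppp1r15a was lower. Among the 34 tested members these were 4 higher (11.8%) and 1 lower (2.94%) in edgeR's quasi-likelihood test with Benjamini-Hochberg adjustment over all genes at 0.05, against 10.6% of all genes called higher and 3.79% called lower. Both shares lie near those of all genes, so the count says nothing particular about the members, and the result is the identity of the 5 genes. Log2 fold changes were positive in 21 and negative in 13 members, with a median of 0.26, against -0.01 over all genes. Groups did not overlap for 6 members with higher values (17.6%, against 17.2% of all genes) and 5 with lower values (14.7%, against 15.8% of all genes).

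Slc1a4 encodes an exchanger of alanine, serine, cysteine and threonine. It had 95.4, 98.3, 198 and 244 CPM in DMM c-FosDCh replicates 1 to 4, against 39.9, 19.9 and 35.4 CPM in DMM c-FosWT and 83.3, 87.2, 75.8 and 53.2 CPM in contralateral c-FosWT libraries. All 4 DMM c-FosDCh libraries lay above all 7 libraries of the other groups, and replicates 3 and 4 were the highest. The log2 fold change between the DMM groups was 2.32 ± 0.39 (SE; adjusted p = 0.0332, edgeR), or 5.004-fold.

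Slc38a1 and Slc38a2 encode sodium-coupled importers of glutamine and other small neutral amino acids, and Slc38a2 is known to be induced by amino acid shortage. Slc38a1 had 196, 167, 343 and 499 CPM in DMM c-FosDCh libraries, against 123, 126 and 121 CPM in DMM c-FosWT libraries (log2 fold change 1.29 ± 0.33, adjusted p = 0.0368, edgeR). Slc38a2 had 322, 351, 606 and 645 CPM in DMM c-FosDCh, against 296, 221 and 227 CPM in DMM c-FosWT libraries (0.96 ± 0.25, adjusted p = 0.0390, edgeR). For both genes replicates 3 and 4 stood highest and the DMM groups did not overlap. Contralateral c-FosWT libraries, at 178, 179, 168 and 143 CPM for Slc38a1 and 337, 306, 360 and 313 CPM for Slc38a2, overlapped DMM c-FosDCh replicate 2 for Slc38a1 and replicates 1 and 2 for Slc38a2.

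Nupr1 encodes a small chromatin-associated protein induced by many stresses, and its promoter stretch is among those shown above. It had 88.8, 82.2, 96.9 and 204 CPM in DMM c-FosDCh libraries, against 53.4, 35.3 and 36.1 CPM in DMM c-FosWT and 63.1, 68.7, 68.7 and 56.3 CPM in contralateral c-FosWT libraries. Every DMM c-FosDCh library lay above every library of both other groups, with replicate 4 far above the rest (log2 fold change 1.5 ± 0.31 against DMM c-FosWT, adjusted p = 0.0332, edgeR).

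Ppp1r15a encodes the regulatory subunit that brings protein phosphatase 1 to phosphorylated eIF2 and so ends the stress response. It had 27.7, 39.0, 26.3 and 35.9 CPM in DMM c-FosDCh libraries, against 72.7, 57.8 and 84.6 CPM in DMM c-FosWT libraries (log2 fold change -1.15 ± 0.24, adjusted p = 0.0332, edgeR). Contralateral c-FosWT libraries had 32.3, 29.7, 27.5 and 53.1 CPM. The 3 DMM c-FosWT libraries were the 3 highest of all 11.

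These calls depended on single libraries, as did those over all genes. The number of genes called also changed with the library left out, so the member counts below are no result about the members. Leaving out contralateral c-FosWT replicate 1, DMM c-FosWT replicate 2 or 3, or DMM c-FosDCh replicate 3 or 4 left 0 members and 0 genes called, with a lowest adjusted p of 0.0574, 0.142, 0.106, 0.0884 and 0.0570; without contralateral c-FosWT replicate 2 or 3, 3 members were called each time, without DMM c-FosDCh replicate 1 there were 9, and without its replicate 2 there were 11. Marrow scores of the DMM groups did not overlap (4.01 to 7.59 in DMM c-FosDCh, 8.12 to 8.88 in DMM c-FosWT). A fit with this score therefore compares the DMM groups at a score that they did not share, and it cannot decide between score and group. With the marrow score as a covariate the log2 fold changes were 1.41 for Slc1a4, 0.70 for Nupr1, 0.37 for Slc38a1, 0.39 for Slc38a2 and -0.96 for Ppp1r15a, none of them called. With DMM c-FosDCh replicates 3 and 4 left out they were 1.60, 1.03, 0.55, 0.43 and -1.12, and with the cartilage score in place of the marrow score 1.66, 1.09, 0.83, 0.49 and -1.24, again none called.

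**Figure D2:**
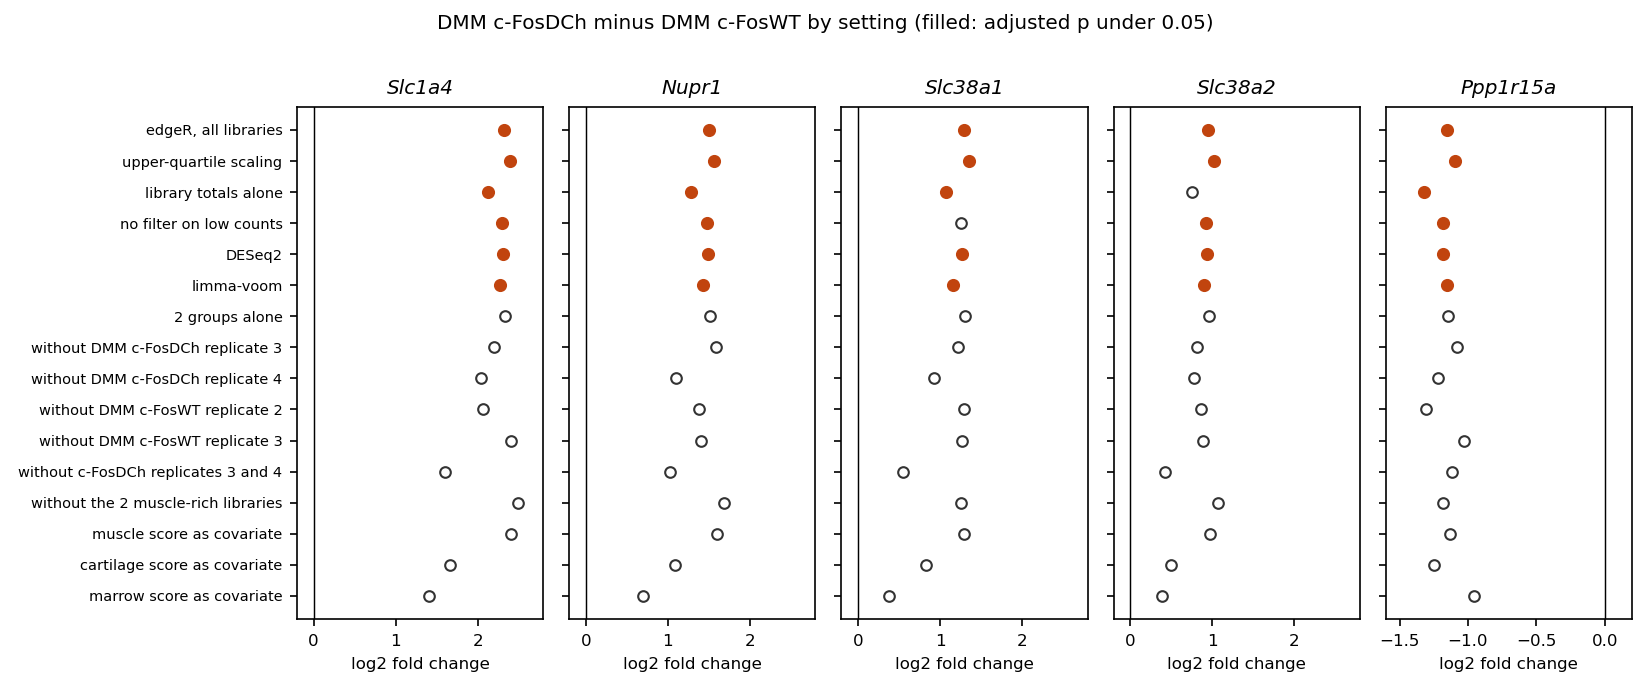
Log2 fold change between DMM c-FosDCh and DMM c-FosWT libraries (x axis) of the 5 called members under 16 settings (rows); filled points have an adjusted p under 0.05. The sign is the same in every setting drawn, the values of Slc38a1 and Slc38a2 are smallest with the marrow score as covariate (0.37 and 0.39), and Ppp1r15a stays between -1.32 and -0.96.

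Atf4 mRNA was not called. It had 102, 103, 102 and 188 CPM in DMM c-FosDCh libraries, against 104, 92.5 and 109 CPM in DMM c-FosWT and 107, 99.2, 99.4 and 105 CPM in contralateral c-FosWT libraries. Only DMM c-FosDCh replicate 4 stood apart, and the groups overlapped (log2 fold change 0.28 ± 0.21 between the DMM groups, adjusted p = 0.312, edgeR). Without replicates 3 and 4 the value was -0.0004. Since Atf4 is regulated largely at translation, its mRNA level is not a measure of its protein.

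The related factor Atf5, itself an ATF4 target, had 55.4, 45.9, 47.0 and 133 CPM in DMM c-FosDCh libraries, against 38.8, 24.6 and 33.7 CPM in DMM c-FosWT libraries (log2 fold change 1.12 ± 0.39, adjusted p = 0.0719, edgeR). The DMM groups did not overlap, but the call missed the threshold. Its log2 fold change was 0.61 without DMM c-FosDCh replicate 4 and 0.14 with the marrow score as a covariate. Contralateral c-FosWT libraries had 65.5, 78.0, 66.2 and 40.4 CPM. Ddit3, the pro-apoptotic factor CHOP, averaged 14.7 ± 2.7 CPM in DMM c-FosDCh, 12.4 ± 1.5 CPM in DMM c-FosWT and 14.3 ± 2.8 CPM in contralateral c-FosWT libraries. Cebpb, a dimer partner of ATF4, averaged 36.8 ± 6.6 CPM in DMM c-FosDCh, 42.8 ± 11 CPM in DMM c-FosWT and 34.1 ± 7.4 CPM in contralateral c-FosWT libraries, and 20.7% of its exon length is shared with Tmem189 on the opposite strand, so that its counts are uncertain where the strand setting is not known.

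Feedback and translation genes other than Ppp1r15a gave no call. The pseudokinase gene Trib3, which restrains ATF4, averaged 4.14 ± 3.3 CPM in DMM c-FosDCh, 2.21 ± 0.67 CPM in DMM c-FosWT and 4.10 ± 1.6 CPM in contralateral c-FosWT libraries. Chac1, which degrades glutathione, averaged 5.25 ± 3.6 CPM in DMM c-FosDCh, 3.74 ± 0.93 CPM in DMM c-FosWT and 4.05 ± 0.59 CPM in contralateral c-FosWT libraries, with 10.6 CPM in DMM c-FosDCh replicate 4. The translation repressor gene Eif4ebp1 averaged 27.6 ± 8.0 CPM in DMM c-FosDCh, 26.3 ± 1.3 CPM in DMM c-FosWT and 25.0 ± 2.6 CPM in contralateral c-FosWT libraries. The leucine sensor gene Sesn2 averaged 15.2 ± 3.4 CPM in DMM c-FosDCh, 18.8 ± 1.3 CPM in DMM c-FosWT and 15.9 ± 1.8 CPM in contralateral c-FosWT libraries. For these 4 genes the DMM groups overlapped.

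Transporters differed in direction. Of the 8 tested, 3 were called higher in DMM c-FosDCh and the other 5 had negative log2 fold changes without a call. Slc7a5, the leucine and aromatic amino acid exchanger, had 32.1, 46.1, 37.3 and 64.0 CPM in DMM c-FosDCh libraries, against 77.8, 65.8 and 85.0 CPM in DMM c-FosWT and 41.9, 36.7, 31.5 and 58.2 CPM in contralateral c-FosWT libraries (log2 fold change -0.76 ± 0.25 between the DMM groups, adjusted p = 0.0633, edgeR). All 3 DMM c-FosWT libraries lay above the other 8. Its partner chain gene Slc3a2 averaged 75.2 ± 14 CPM in DMM c-FosDCh, 82.3 ± 8.0 CPM in DMM c-FosWT and 73.2 ± 10 CPM in contralateral c-FosWT libraries, with overlapping groups.

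The glutamine exchanger gene Slc1a5 had 134, 139, 94.1 and 109 CPM in DMM c-FosDCh libraries, against 141, 181 and 178 CPM in DMM c-FosWT and 138, 163, 147 and 142 CPM in contralateral c-FosWT libraries. The DMM groups did not overlap, although the highest DMM c-FosDCh library and the lowest DMM c-FosWT library lay close together (log2 fold change -0.49 ± 0.15, adjusted p = 0.0537, edgeR). Slc7a11, the cystine importer that feeds glutathione synthesis, averaged 2.57 ± 2.0 CPM in DMM c-FosDCh, 6.94 ± 1.3 CPM in DMM c-FosWT and 3.87 ± 1.6 CPM in contralateral c-FosWT libraries. Its DMM groups did not overlap either, and DMM c-FosDCh replicates 3 and 4 were the lowest of all libraries.

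The arginine and lysine importers Slc7a1 and Slc7a2 belong to the same family. Slc7a2, at chr8:40862396-40922308 on the plus strand (GRCm38), had 169, 170, 241 and 217 CPM in DMM c-FosDCh libraries, against 93.9, 58.6 and 76.5 CPM in DMM c-FosWT and 125, 192, 156 and 162 CPM in contralateral c-FosWT libraries. The 3 DMM c-FosWT libraries were the lowest of all 11, and the DMM c-FosDCh libraries overlapped the contralateral ones. As the gene was picked for this pattern, its log2 fold changes of 1.38 ± 0.21 between the DMM groups and -1.06 ± 0.21 between the wild-type knees are given with no test. Slc7a1 averaged 54.8 ± 16 CPM in DMM c-FosDCh, 68.1 ± 7.8 CPM in DMM c-FosWT and 51.6 ± 5.8 CPM in contralateral c-FosWT libraries. Per kb, Slc7a2 had 21.8 ± 3.9 and Slc7a1 4.75 ± 1.4 CPM in DMM c-FosDCh libraries, against 8.36 ± 1.9 and 5.91 ± 0.67 CPM per kb in DMM c-FosWT libraries, where the levels of the pair lay closest, and 17.4 ± 3.0 and 4.48 ± 0.50 CPM per kb in contralateral c-FosWT libraries.

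Serine is made from a glycolytic intermediate by Phgdh, Psat1 and Psph in turn, and Shmt1 (cytosol) and Shmt2 (mitochondria) convert it to glycine. Psat1 had 16.9, 18.5, 7.44 and 2.86 CPM in DMM c-FosDCh libraries, against 25.8, 33.2 and 27.8 CPM in DMM c-FosWT and 20.2, 13.7, 15.3 and 24.5 CPM in contralateral c-FosWT libraries (log2 fold change -1.33 ± 0.49 between the DMM groups, adjusted p = 0.0796, edgeR). The DMM c-FosWT libraries were above all others and DMM c-FosDCh replicates 3 and 4 below all others. Phgdh averaged 7.33 ± 5.0 CPM in DMM c-FosDCh, 17.7 ± 6.3 CPM in DMM c-FosWT and 10.8 ± 3.1 CPM in contralateral c-FosWT libraries, and Shmt1 averaged 3.97 ± 2.4 CPM in DMM c-FosDCh, 8.15 ± 2.2 CPM in DMM c-FosWT and 5.43 ± 1.6 CPM in contralateral c-FosWT libraries. For both genes too, DMM c-FosDCh replicates 3 and 4 were the lowest libraries, but the DMM groups overlapped and neither was called (adjusted p = 0.105 for Phgdh and 0.125 for Shmt1, edgeR).

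Proliferation and marrow markers had the same libraries at their ends. The score of 16 cell cycle genes was 5.57, 5.78, 4.43 and 2.99 in DMM c-FosDCh libraries, against 6.20, 6.64 and 6.81 in DMM c-FosWT and 5.52, 4.74, 4.92 and 6.17 in contralateral c-FosWT libraries. As the marrow scores of the DMM groups did not overlap, a fit compares these groups at a score that they did not share. It cannot decide between score and group, and no cause was tested. With the marrow score as a covariate, the log2 fold changes between the DMM groups were -0.21 for Psat1, -0.048 for Phgdh and 0.020 for Shmt1, against -1.33, -1.27 and -1.03 without it. With DMM c-FosDCh replicates 3 and 4 left out they were -0.73, -0.64 and -0.47. Between the wild-type knees the value of Psat1 turned to -0.19 with the marrow score, against 0.65 without it.

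Psph, Shmt2 and Mthfd2 also had overlapping DMM groups. Psph, the last step of serine synthesis, averaged 8.02 ± 0.66 CPM in DMM c-FosDCh, 7.26 ± 0.77 CPM in DMM c-FosWT and 7.77 ± 0.81 CPM in contralateral c-FosWT libraries, although 10.4% of its exon length is shared with the opposite-strand gene Cct6a. Shmt2 averaged 60.8 ± 22 CPM in DMM c-FosDCh, 45.0 ± 3.7 CPM in DMM c-FosWT and 48.7 ± 2.4 CPM in contralateral c-FosWT libraries. The mitochondrial folate enzyme gene Mthfd2 averaged 21.8 ± 12 CPM in DMM c-FosDCh, 26 ± 1.4 CPM in DMM c-FosWT and 20.5 ± 3.7 CPM in contralateral c-FosWT libraries. In the DMM c-FosDCh group the highest value of both genes came from replicate 4, at 91.5 CPM for Shmt2 and 39.5 CPM for Mthfd2.

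Gldc encodes the decarboxylase of the glycine cleavage system, which breaks glycine down in mitochondria, and lies at chr19:30098447-30175429 on the minus strand (GRCm38). It had 9.42, 6.33, 27.9 and 43.8 CPM in DMM c-FosDCh libraries, against 2.52, 1.66 and 2.34 CPM in DMM c-FosWT and 8.15, 8.28, 15.5 and 4.79 CPM in contralateral c-FosWT libraries. The DMM c-FosWT libraries were the lowest of all 11, replicates 3 and 4 of DMM c-FosDCh were the highest, and the lowest library rests on 29 counts. Picked for its difference, it gets no test; its log2 fold changes were 3.32 ± 0.71 between the DMM groups and -2.08 ± 0.68 between the wild-type knees.

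Enzymes of other amino acids gave no call. Asns, which makes asparagine and is a classical ATF4 target, had 13.2, 19.5, 10.8 and 33.4 CPM in DMM c-FosDCh libraries, against 34.1, 23.7 and 34.5 CPM in DMM c-FosWT and 19.7, 15.4, 13.8 and 24.8 CPM in contralateral c-FosWT libraries (log2 fold change -0.68 ± 0.36 between the DMM groups, adjusted p = 0.179, edgeR). DMM c-FosDCh replicate 4 lay among the DMM c-FosWT libraries, and without it the value was -1.09. The proline synthesis genes Aldh18a1 and Pycr1 averaged 76.1 ± 34 and 15.3 ± 3.2 CPM in DMM c-FosDCh, 51.6 ± 4.0 and 12.6 ± 2.7 CPM in DMM c-FosWT, and 57.6 ± 5.8 and 16.7 ± 1.1 CPM in contralateral c-FosWT libraries. By library, Pycr1 had 11.9, 15.9, 14.0 and 19.5 CPM in DMM c-FosDCh, against 15.6, 11.6 and 10.6 CPM in DMM c-FosWT and 17.2, 17.4, 17.0 and 15.1 CPM in contralateral c-FosWT, so that the DMM groups overlapped (0.28 ± 0.19, adjusted p = 0.264, edgeR).

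The aminotransferase genes Gpt2 and Got1 had their highest wild-type values in the muscle-rich libraries. These were DMM c-FosWT replicate 1, at 29.2 CPM for Gpt2 and 31.2 CPM for Got1, and contralateral c-FosWT replicate 2, at 23.6 and 32.1 CPM, the pair with the highest muscle scores. Group means were 22.5 ± 13 CPM in DMM c-FosDCh, 16 ± 11 CPM in DMM c-FosWT and 17.2 ± 4.4 CPM in contralateral c-FosWT libraries for Gpt2. For Got1 they were 24.8 ± 5.8 CPM in DMM c-FosDCh, 23.4 ± 6.8 CPM in DMM c-FosWT and 22.8 ± 6.2 CPM in contralateral c-FosWT libraries. The highest library of both over the whole series was DMM c-FosDCh replicate 4, at 40.7 and 32.6 CPM, with a muscle score of 4.30. The part of muscle RNA in these values was not tested for either gene.

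Cth and Cbs make cysteine from homocysteine. Cth had 3.80, 1.80, 8.07 and 7.07 CPM in DMM c-FosDCh libraries, against 2.34, 1.43 and 0.946 CPM in DMM c-FosWT and 4.01, 6.64, 6.38 and 3.14 CPM in contralateral c-FosWT libraries (log2 fold change 1.71 ± 0.54 between the DMM groups, adjusted p = 0.0550, edgeR). DMM c-FosDCh replicate 2 lay within the range of the DMM c-FosWT libraries. The value was 0.58 with the marrow score as a covariate and 0.81 with DMM c-FosDCh replicates 3 and 4 left out. Cbs had 14, 7, 21 and 4 counts in DMM c-FosDCh libraries, against 3, 1 and 7 counts in DMM c-FosWT and 15, 14, 37 and 12 counts in contralateral c-FosWT libraries, so its log2 fold change of 1.84 ± 0.73 between the DMM groups (adjusted p = 0.0953, edgeR) rests on very few reads.

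Hspa5, Xbp1 and the lipoprotein receptor gene Vldlr, a reported ATF4 target, had positive but uncalled log2 fold changes between the DMM groups. Hspa5 averaged 636 ± 420 CPM in DMM c-FosDCh, 390 ± 30 CPM in DMM c-FosWT and 426 ± 46 CPM in contralateral c-FosWT libraries, with 1261 CPM in DMM c-FosDCh replicate 4 against 399.6 to 464.1 CPM in replicates 1 to 3. Xbp1 had 165, 130, 156 and 297 CPM in DMM c-FosDCh libraries, against 127, 112 and 127 CPM in DMM c-FosWT and 146, 144, 148 and 136 CPM in contralateral c-FosWT libraries (log2 fold change 0.62 ± 0.24, adjusted p = 0.0893, edgeR). Replicate 4 was again the highest, and the value was 0.30 without it and 0.043 with the marrow score as a covariate. Vldlr had 83.5, 138, 130 and 172 CPM in DMM c-FosDCh libraries, against 108, 63.3 and 55.2 CPM in DMM c-FosWT and 94.1, 105, 118 and 75.0 CPM in contralateral c-FosWT libraries (0.80 ± 0.29 between the DMM groups, adjusted p = 0.0753, edgeR; 0.29 with the marrow score).

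DMM c-FosDCh replicate 4 stood apart in many members. Without the picked pair, it had the highest value of all 11 libraries in 21 of 34 members (61.8%), against 23.5% of all genes tested. Atf4, Atf5, Nupr1, Chac1, Trib3 and Hspa5 were among the members highest there, while Psat1, Phgdh and Shmt1 were at their lowest. It was also the library with the lowest marrow score, 4.01. DMM c-FosWT replicate 2 had the lowest value in 13 of these 34 members (38.2%), against 19.7% of all genes, and the lowest cartilage score, 6.58 against 7.60 to 8.95 in the other libraries.

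**Figure D3:**
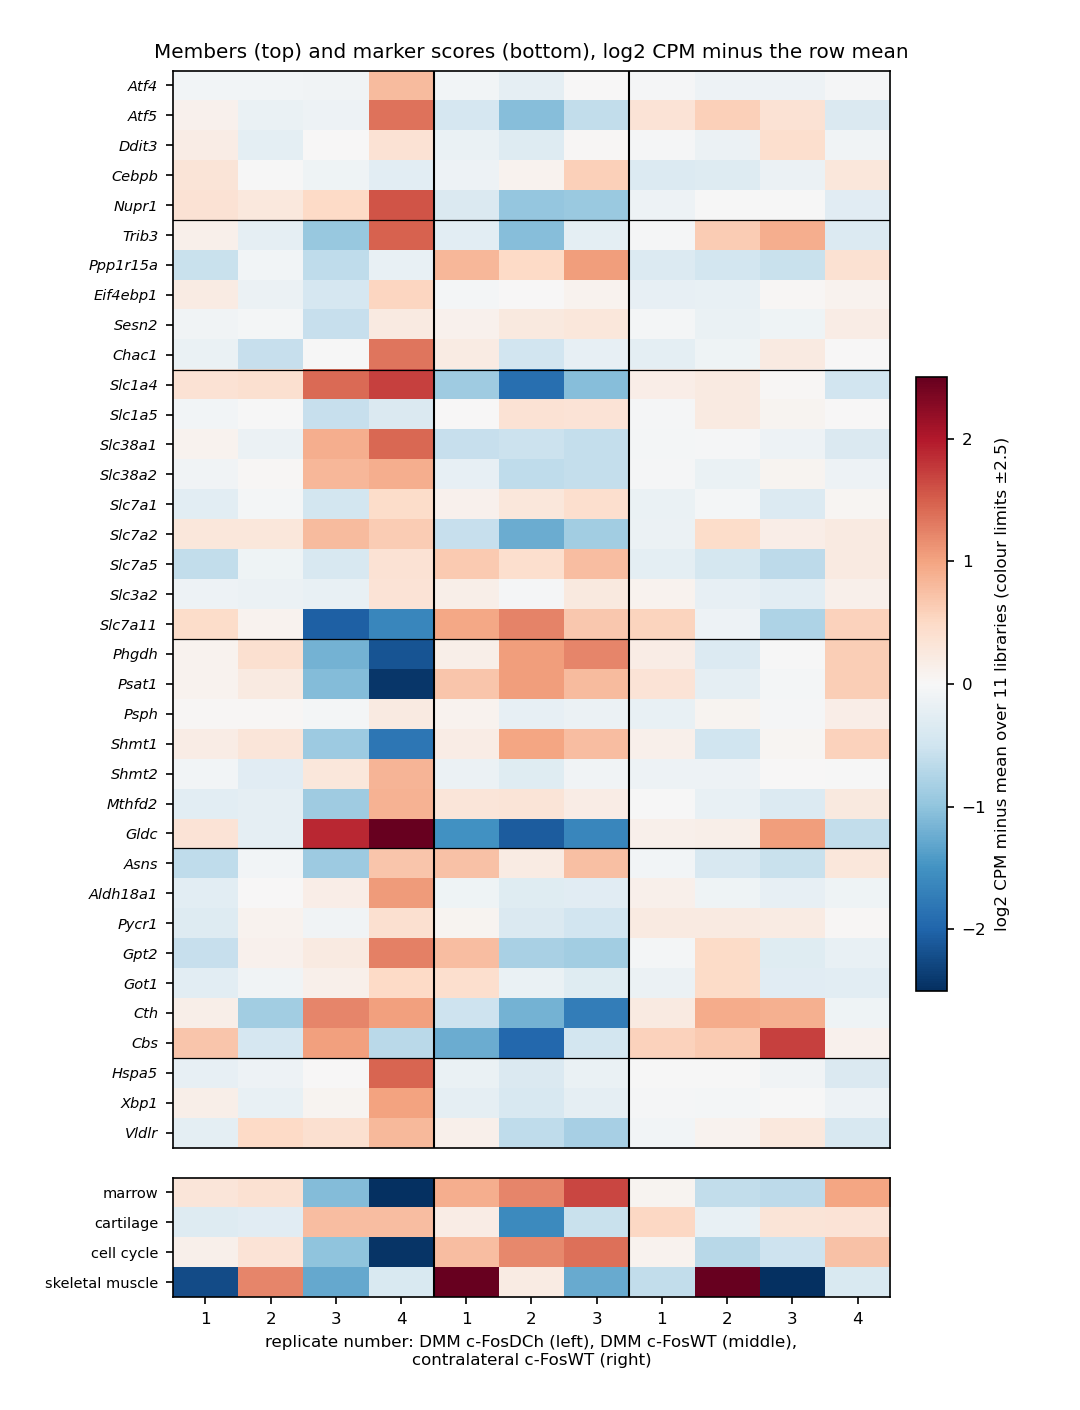
Log2 CPM of the 36 members (top rows, grouped by role) and of 4 marker scores (bottom rows) in each library, minus the mean of the row over 11 libraries; red is above and blue below that mean, and columns are DMM c-FosDCh, DMM c-FosWT and contralateral c-FosWT libraries. DMM c-FosDCh replicate 4 is red for Atf4, Atf5, Nupr1, Trib3, Chac1 and Hspa5 and blue for Psat1, Phgdh, Shmt1 and the marrow and cell cycle scores.

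The second question was how the members differed between operated and contralateral knees of wild-type mice. Ppp1r15a, Slc7a5 and Asns averaged more, and Slc1a4, Cth and Atf5 less, in DMM c-FosWT than in contralateral c-FosWT libraries, but no member passed. In edgeR's quasi-likelihood test 0 of 34 members and 0 of 18125 genes (0%) were called, while the unadjusted p was under 0.05 for 6 members and 3605 genes, and the lowest adjusted p was 0.182. DESeq2 called 4 members and 902 genes, limma-voom 0 of each. Log2 fold changes were positive in 15 and negative in 19 members, with a median of -0.10, against -0.01 over all genes. Groups did not overlap for 5 members with higher values (14.7%, against 10.1% of all genes) and 8 with lower values (23.5%, against 13.1% of all genes). Tissue markers differed here too. Red cell markers were higher without overlap in 14 of 14 genes. Summed cartilage markers were lower, at 7257 to 19430 CPM in DMM c-FosWT against 23490 to 45020 CPM in contralateral c-FosWT libraries, although cartilage scores overlapped. How far the mix of tissue carries the member differences was not tested.

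By size, Ppp1r15a had a log2 fold change of 1.01 ± 0.24 and Slc7a5 one of 0.86 ± 0.25, with 3 of 3 DMM c-FosWT libraries above all 4 contralateral ones (adjusted p = 0.182 each, edgeR). Asns had 0.74 ± 0.36 (adjusted p = 0.279, edgeR), with overlapping groups. Slc1a4 had -1.24 ± 0.38 and Cth -1.68 ± 0.53 (adjusted p = 0.182 each, edgeR), with 3 of 3 DMM c-FosWT libraries below all contralateral ones. DESeq2 called Ppp1r15a and Slc7a5 higher and Slc1a4 and Cth lower. Atf5 had -0.95 ± 0.39 (adjusted p = 0.224), Pycr1 -0.41 ± 0.19 (adjusted p = 0.257), Cbs -2.48 ± 0.72 (adjusted p = 0.182) and Atf4 -0.01 ± 0.21 (adjusted p = 0.977), all by edgeR.

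Within the 3 animals that gave both knees, the DMM minus contralateral difference of log2 CPM was 0.67 to 1.17 for Ppp1r15a, 0.55 to 0.89 for Slc7a5 and 0.47 to 0.79 for Asns, positive in 3 of 3 animals. It was -2.12 to -0.59 for Slc1a4, -2.12 to -0.75 for Cth, -1.66 to -0.26 for Atf5 and -0.96 to -0.24 for Nupr1, negative in 3 of 3 animals. For Atf4 it was -0.10 to 0.05, positive in 1 of 3. For Ppp1r15a, Slc7a5, Slc1a4, Cth, Atf5 and Nupr1 the groups did not overlap, so the shared sign within animals follows from that. It is no added support for these genes. With the animal as a replicate block 0 members were called.

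**Figure D4:**
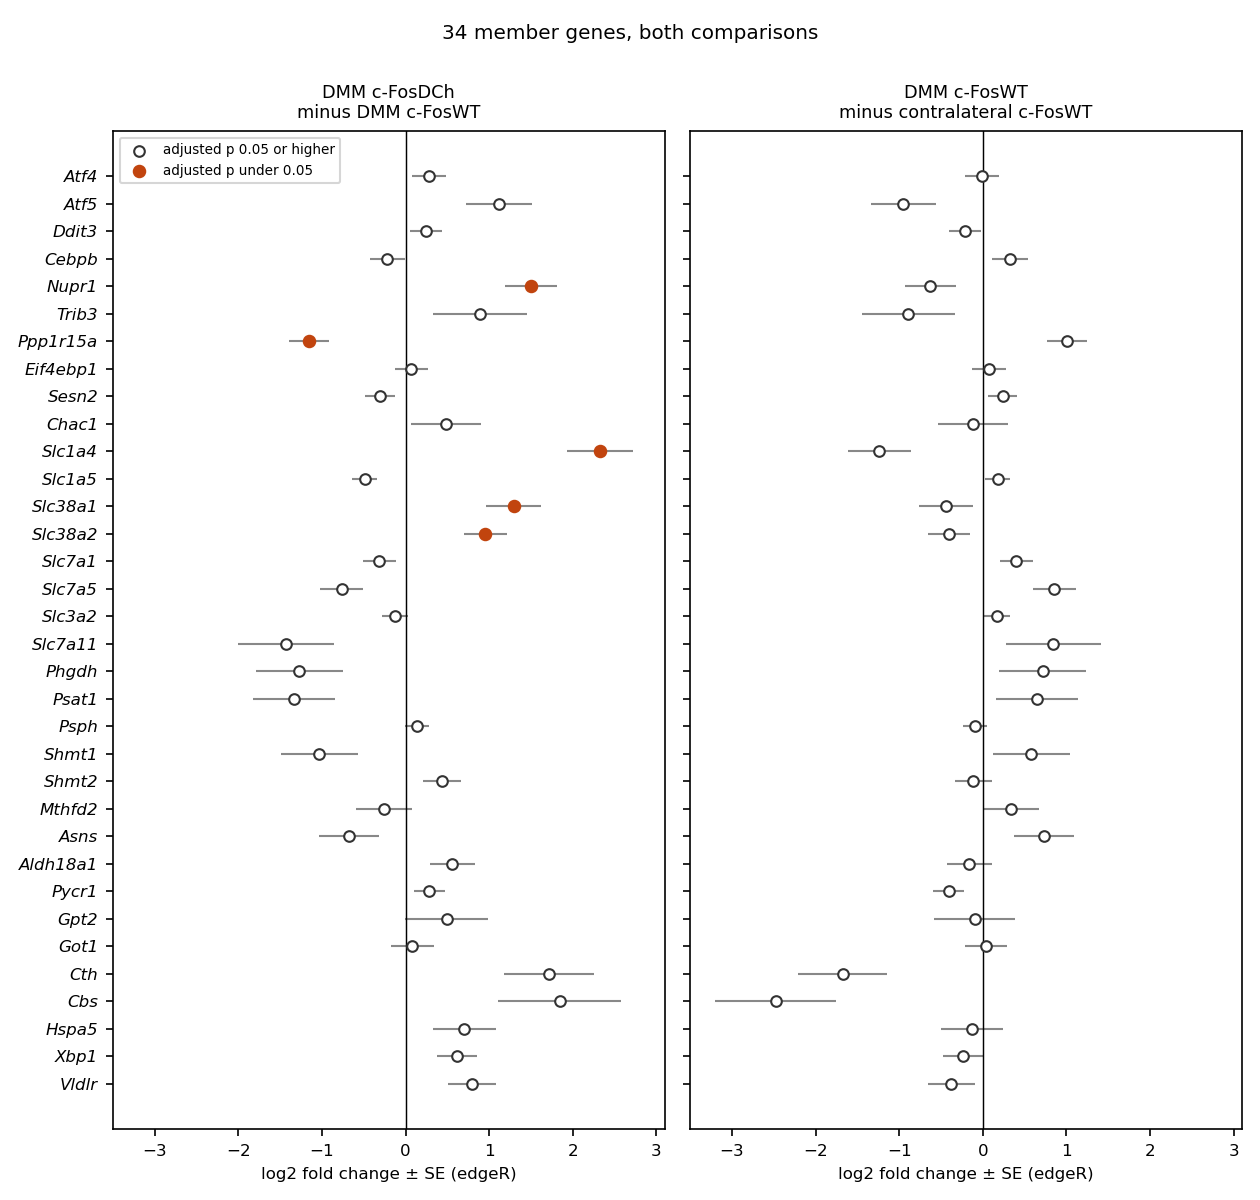
Log2 fold change ± SE (x axis, edgeR) of the 34 tested members (rows, grouped by role) between DMM c-FosDCh and DMM c-FosWT (left) and between DMM c-FosWT and contralateral c-FosWT libraries (right); filled points have an adjusted p under 0.05. Slc1a4, Nupr1, Slc38a1 and Slc38a2 are filled to the right and Ppp1r15a to the left of 0 in the left panel, and no point is filled in the right panel; both panels use the same 3 DMM c-FosWT libraries, on opposite sides of the difference.

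Between DMM c-FosDCh and contralateral c-FosWT libraries, genotype and surgery differ together and cannot be told apart. There 0 of 34 members and 0 genes (0%) were called by edgeR (4 members and 1512 genes at an unadjusted p under 0.05, lowest adjusted p 0.584), and DESeq2 called 41 genes and 0 members. Slc1a4 and Nupr1 had no overlap, with higher values (5.88% of members, against 2.28% of all genes), and 0 members had lower values without overlap, against 2.12% of all genes. The 3 comparisons share libraries, so their values are not independent.

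Other genes of the same pathways were counted from lists written with an earlier summary of these data known, and the counts refer to the DMM groups. They stand beside the 10.6% of all genes called higher and 3.79% called lower, and none is taken as particular to its list. Of 13 genes for eIF2 kinases, eIF2 and its exchange factor eIF2B, 1 was higher in DMM c-FosDCh (7.69%) and 3 lower (23.1%). The higher gene was Impact, an inhibitor of the amino acid sensor kinase GCN2 (84.5 ± 30 CPM in DMM c-FosDCh, against 42.0 ± 9.0 CPM in DMM c-FosWT; log2 fold change 1.01 ± 0.27, adjusted p = 0.0394, edgeR). The heme-sensing kinase gene Eif2ak1 was lower (57.3 ± 11 CPM in DMM c-FosDCh, against 122 ± 17 CPM in DMM c-FosWT; -1.09 ± 0.22, adjusted p = 0.0332, edgeR), as was Eif2s1, which encodes the phosphorylated eIF2 subunit (22.6 ± 4.0 CPM in DMM c-FosDCh, against 33.3 ± 2.7 CPM in DMM c-FosWT; -0.56 ± 0.16, adjusted p = 0.0466, edgeR). The third lower gene was Eif2ak2, the kinase that senses double-stranded RNA (26 ± 7.7 CPM in DMM c-FosDCh, against 43.1 ± 4.5 CPM in DMM c-FosWT; -0.73 ± 0.21, adjusted p = 0.0475, edgeR). Eif2ak1 is known for its role in red cell precursors, and erythroid markers were lower in the same comparison, with 6 of 14 called; their part in this value was not tested.

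Of 21 other amino acid transporters tested, 6 were higher (28.6%) and 4 lower (19.0%). Slc6a6, the taurine transporter gene, had 702 ± 220 CPM in DMM c-FosDCh, against 297 ± 48 CPM in DMM c-FosWT (log2 fold change 1.24 ± 0.28, adjusted p = 0.0332, edgeR), the lysosomal exporter gene Slc38a7 21.6 ± 1.4 CPM in DMM c-FosDCh, against 15.3 ± 1.5 CPM in DMM c-FosWT (0.49 ± 0.11, adjusted p = 0.0332, edgeR), and the glutamate transporter gene Slc1a1 33.9 ± 27 CPM in DMM c-FosDCh, against 3.62 ± 2.3 CPM in DMM c-FosWT (3.23 ± 0.75, adjusted p = 0.0336, edgeR). The 4 lower ones were Slc16a10 (-1.59 ± 0.37), a carrier of aromatic amino acids, the glycine transporter gene Slc6a9 (-1.28 ± 0.34), the lysosomal arginine sensor gene Slc38a9 (-0.44 ± 0.12) and Slc43a1 (-1.94 ± 0.57), a carrier of large neutral amino acids. Of 20 cytosolic tRNA synthetase genes, 0 were higher and 3 lower (15%): Kars, Hars and Vars, with log2 fold changes of -0.37 ± 0.08, -0.39 ± 0.11 and -0.88 ± 0.25. Between the wild-type knees 19 of the 20 synthetases had positive and 1 a negative value, median 0.22, with 0 called. Over all genes 8897 of 18125 were positive there, median -0.01. The synthetases were measured in the same libraries, so their signs are not independent.

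Of 16 other ATF4 targets and partners tested, 2 were higher (12.5%) and 0 lower: Ddit4, an mTORC1 inhibitor, at 79.6 ± 36 CPM in DMM c-FosDCh against 27.5 ± 7.6 CPM in DMM c-FosWT (log2 fold change 1.53 ± 0.31, adjusted p = 0.0332, edgeR), and the secreted glycoprotein gene Stc2 at 76.8 ± 44 CPM in DMM c-FosDCh against 16.3 ± 6.3 CPM in DMM c-FosWT (2.24 ± 0.46, adjusted p = 0.0332, edgeR). Of 17 amino acid sensing genes upstream of mTORC1, 3 were higher (17.6%), Castor1, Rragb and Sesn3, with values of 1.01 ± 0.21, 1.32 ± 0.33 and 1.46 ± 0.37. Of 18 other amino acid enzymes, the branched-chain aminotransferase gene Bcat1 (2.46 ± 0.58) and the ornithine aminotransferase gene Oat (0.96 ± 0.24) were higher, and Odc1, the first enzyme of polyamine synthesis, was lower (-1.01 ± 0.19). Among the other one-carbon genes reported here, Mthfd1 was lower (-0.63 ± 0.13) and 0 were higher. Of 20 other unfolded protein response genes, Creb3l2 was higher (1.32 ± 0.33), 0 were lower and 18 had positive values, with a median of 0.40. Over all genes 8968 of 18125 were positive, with a median of -0.01. The spread of these genes within DMM c-FosDCh ran from narrow, as for Ern1 (88.4 ± 2.5 CPM), to wide, as for Hyou1 (196 ± 130 CPM). How far 1 library carries their direction was not tested. In both other comparisons 0 genes of these 8 lists were called.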

How the data were processed

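Per the labels' protocols and the submitters' processing notes, the authors used bcl2fastq 2.19.1.403, STAR 2.6.1a, RSEM and DESeq2 1.22.2 with GRCm38 (role of RSEM, annotation release and strand setting: not given in the sources used here). Each library's deposited file holds raw counts (column 2 of STAR's layout); genes held 33.08 to 43.16% of its reads, and the read classes that are not genes were left out. Symbols and exon lengths came from GENCODE M21. Replicates were compared before averaging, and none agreed within sampling noise (lowest chi-square per degree of freedom 31.03). Each library of a group came from a different animal, so p-values measure the spread between animals within groups. The main fit ignores that 3 wild-type animals gave both knees. The c-FosDCh replicates are numbered in accession order.

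edgeR 4.0.16 (R 4.3.3) fitted all 11 libraries by group after filterByExpr and TMM scaling (quasi-likelihood, two-sided), with Benjamini-Hochberg adjustment over 18125 genes and a threshold of 0.05. CPM use TMM-scaled totals; log2 CPM a prior count of 2; ± is the SD of CPM and the SE of a fold change. Alternatives used limma 3.58.1 and DESeq2 1.42.0, and the fit was tested on simulated data. The members and lists were chosen with earlier results of these data known. One result from the one-carbon list is not reported here. Values in every library are given for Atf4, the picked pair, called members and the 8 next by p in each main comparison. From each other list up to 3 called genes were named by smallest p; Eif2ak2 and the 4 lower transporters were named after their values were seen. Knees of the same animal had correlations of deviations of -0.17, -0.18 and 0.25; the pairing comes from the labels.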

Additional observations from a re-analysis of the deposited data

Results flagged for a closer look

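Dixon's 95% limit was applied to 72 sets of 4 libraries, and chance flags about 1 in 20 sets. Each set was 1 member, the picked pair included, in 1 group of 4 libraries. In all, 8 values stood apart from the other 3 of their set by more than this limit. Of these, 6 came from DMM c-FosDCh replicate 4: Atf4 with 187.8 CPM (101.9 to 103.0 in replicates 1 to 3), Atf5 with 132.9 CPM (45.91 to 55.41), Chac1 with 10.56 CPM (2.732 to 4.066), Slc3a2 with 96.18 CPM (66.74 to 69.14), Nupr1 with 203.6 CPM (82.24 to 96.89) and Hspa5 with 1261 CPM (399.6 to 464.1). In contralateral c-FosWT libraries, Ddit3 had 18.49 CPM in replicate 3 (12.42 to 13.41 in the others) and Got1 had 32.13 CPM in replicate 2 (18.97 to 20.93), the library with the highest muscle score of its group.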

How the results depend on the processing

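Between the DMM groups, 5 members and 2616 genes (1929 higher, 687 lower) were called. DESeq2 called 13 members (7 higher, 6 lower) and 5358 genes, and limma-voom 9 members. Without the filter on low counts 1443 genes were called. The count of genes thus changed with the method as well as the count of members, and the latter is no result about the members. Both counts were 0 with the muscle-rich pair of libraries left out, with DMM c-FosDCh replicates 3 and 4 left out, with the DMM groups fitted alone, and with the marrow, cartilage or muscle score as covariate; leaving out 1 library gave 0 to 11 members and 0 to 4605 genes. Library totals alone split the genes into 1176 higher and 981 lower and moved the median of all genes to -0.184 on the log2 scale. Between the wild-type knees DESeq2 called 4 members and 902 genes; the paired fit with the animal as replicate block called 0 of each, with 11 members at an unadjusted p under 0.05. Between DMM c-FosDCh and contralateral c-FosWT, DESeq2 called 41 genes and leaving out 1 library gave 0 to 1.

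Over 34 members, 42 of 782 alternative values changed sign between the wild-type knees and 30 of 748 between the DMM groups. Among members whose fold changes are printed, Atf4 between the wild-type knees turned to 0.022 without the filter, to 0.020 without DMM c-FosDCh replicates 3 and 4, to 0.012 by DESeq2, to 0.22 and 0.21 with the marrow and cartilage scores, and ran from -0.060 to 0.067 with 1 library left out. With the marrow score, the wild-type knees turned to -0.19 for Psat1, 0.039 for Slc38a1 and 0.070 for Xbp1; with the cartilage score, to 0.0058 for Slc38a2, -0.084 for Slc1a5 and 0.014 for Xbp1. Between the DMM groups, Atf4 turned to -0.0004 without replicates 3 and 4 and to -0.16 with the marrow score, and Pycr1 to -0.037 with that score. Among other values between the DMM groups that moved by over 1.5 times were Asns (-1.05 with the marrow score) and Slc1a5 (-0.33, -0.24 and -0.31 with the marrow score, with the cartilage score and without replicates 3 and 4). With the cartilage score Atf5 had 0.72, Xbp1 0.35, Vldlr 0.50 and Cth 1.11, and Pycr1 ran from 0.14 to 0.43 with 1 library left out. Between the wild-type knees, the marrow score gave -0.40 for Atf5, -0.22 for Pycr1, -0.73 for Slc1a4 and -1.01 for Cth. The causes were not tested. Cbs, with 1 to 37 counts a library, is limited by depth.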
